A study of Mus musculus with 14 samples.

Results

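The 40 protein-coding imprinted genes of a fixed list were followed through chromatin immunoprecipitation and sequencing (ChIP-seq) of the mouse heart, out of 21887 protein-coding genes in all. A gene's window was its annotated body plus 2500 bp on either side (mm10), and every differential region in the authors' deposited tables that overlapped a window was taken as a region of that gene. The samples were cardiomyocyte-enriched cells of C57BL/6J mice, either from sham hearts (labelled as untreated) or 1 week after transverse aortic constriction (TAC), a surgical narrowing of the aorta that loads the left ventricle with pressure. No transgene, knockout or further agent is named in the labels, and age, sex and pooling of animals are not given there. Antibodies recognised G9a, the enzyme encoded by Ehmt2 that places H3K9me2, H3K9me2 itself, and H3K27me3, the mark placed by Polycomb repressive complexes, in 2 biological replicates of each condition, and 1 input library was made per condition (14 libraries).

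Each of the 3 antibodies has a deposited table of regions called as differing between sham and TAC. Every region carries 4 whole numbers, 1 per library, in a first and a second pair. Which of these is sham (not given in the sources used here) remains unknown, so directions are named by pair, and nothing below says which condition was higher. Log2 differences compare the mean of the second pair with that of the first after adding 1 to each, so a value is positive where the second pair was higher, and changes of low regions are understated. Regions are called separated, or without overlap of pairs, where the lower value of the higher pair lies above the higher value of the lower pair. The 4 values printed for a region are those of the authors' deposited table for the antibody named, and the region printed for a gene is the one with the smallest deposited p in its window unless another is named.

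Imprinted genes are expressed only or mainly from the maternal or the paternal copy, some of them in certain tissues only. Whether the listed genes are imprinted in these heart cells was not examined. DNA methylation laid down in the egg or sperm at an imprinting control region marks the parental origin, and a noncoding RNA transcribed from such a region can silence the neighbouring genes in cis. At the Kcnq1 and Igf2r domains that silencing is known, from placenta, to involve G9a with H3K9me2 and Polycomb with H3K27me3, while Slc38a4 belongs to the few genes whose imprint can rest on H3K27me3 inherited from the egg. The reads here carry no parental label, so all values sum both copies.

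Promoters are shown first for the 6 imprinted genes whose promoter window was overlapped by listed regions of at least 2 antibodies, taking those overlapped by more antibodies first and then those with the smaller deposited p. Each line gives the 300 bp window of RefSeq (assembly GRCm38.p6) from 250 bases before to 50 bases after a transcription start, 5′ to 3′ on the gene's strand, with every CG dinucleotide, the target of DNA methylation, in capitals. The windows are Peg12 at chr7:62464461-62464760 (minus strand), Magel2 at chr7:62376729-62377028 (plus), Ascl2 at chr7:142969215-142969514 (minus), Dio3 at chr12:110278980-110279279 (plus), Dlk1 at chr12:109452573-109452872 (plus) and Igf2 at chr7:142666767-142667066 (minus), the last being 1 of several annotated Igf2 starts.
Peg12: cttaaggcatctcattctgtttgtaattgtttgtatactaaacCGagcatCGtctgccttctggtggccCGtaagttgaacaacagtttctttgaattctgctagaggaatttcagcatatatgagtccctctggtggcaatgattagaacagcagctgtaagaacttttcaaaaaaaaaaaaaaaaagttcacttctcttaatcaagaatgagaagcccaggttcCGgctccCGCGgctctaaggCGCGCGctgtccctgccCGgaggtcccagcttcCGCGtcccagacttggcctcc
Magel2: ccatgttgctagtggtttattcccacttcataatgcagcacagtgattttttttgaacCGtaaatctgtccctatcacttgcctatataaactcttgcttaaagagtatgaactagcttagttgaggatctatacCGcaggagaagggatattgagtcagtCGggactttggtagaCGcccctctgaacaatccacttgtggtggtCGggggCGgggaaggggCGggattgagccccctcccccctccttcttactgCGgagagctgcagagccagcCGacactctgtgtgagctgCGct
Ascl2: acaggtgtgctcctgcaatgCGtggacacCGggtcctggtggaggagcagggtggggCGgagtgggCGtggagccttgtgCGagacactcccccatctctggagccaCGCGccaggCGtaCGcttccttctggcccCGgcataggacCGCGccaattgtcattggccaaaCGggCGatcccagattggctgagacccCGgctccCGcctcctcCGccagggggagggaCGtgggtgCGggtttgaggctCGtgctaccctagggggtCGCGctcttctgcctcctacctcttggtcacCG
Dio3: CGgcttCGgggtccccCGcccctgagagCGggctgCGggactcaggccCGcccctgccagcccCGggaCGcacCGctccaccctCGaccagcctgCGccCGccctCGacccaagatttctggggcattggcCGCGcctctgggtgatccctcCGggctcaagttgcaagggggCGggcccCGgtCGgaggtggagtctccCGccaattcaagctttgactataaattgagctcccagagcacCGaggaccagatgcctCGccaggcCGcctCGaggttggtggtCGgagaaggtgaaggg
Dlk1: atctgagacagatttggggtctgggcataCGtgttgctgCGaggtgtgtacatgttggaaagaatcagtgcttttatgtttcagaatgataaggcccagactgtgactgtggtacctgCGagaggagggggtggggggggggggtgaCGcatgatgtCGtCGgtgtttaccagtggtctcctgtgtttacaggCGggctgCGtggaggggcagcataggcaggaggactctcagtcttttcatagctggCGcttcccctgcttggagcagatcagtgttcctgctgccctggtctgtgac
Igf2: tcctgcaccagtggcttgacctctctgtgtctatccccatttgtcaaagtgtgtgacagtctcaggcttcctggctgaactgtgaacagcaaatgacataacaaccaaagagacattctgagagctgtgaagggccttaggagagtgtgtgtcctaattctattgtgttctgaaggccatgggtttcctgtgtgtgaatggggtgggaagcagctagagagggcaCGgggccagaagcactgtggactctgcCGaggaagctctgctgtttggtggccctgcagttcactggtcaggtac
The CG content of these promoters differed widely: 25 CG in Dio3, 23 in Ascl2, 12 in Peg12, 10 in Magel2, 9 in Dlk1 and 2 in the Igf2 window. Over the 54 promoter windows of the 35 imprinted genes that have an entry the median was 13.5 CG, against 13 over all 21263 protein-coding windows. The 26 imprinted windows that lay in a listed H3K27me3 region had a median of 13 CG and the 28 outside one had 15, while the 6063 windows of all genes in an H3K27me3 region had a median of 8. The hexamer TGCCGC, which the imprint-protecting zinc finger protein ZFP57 recognises, was searched on both strands and occurred in 22.2% of the imprinted windows and 14.1% of all windows of this length. None of the 6 printed windows holds these letters, which says nothing of the factor elsewhere in the domains. Igf2 windows at chr7:142661222-142661521 and chr7:142658755-142659054 ranked equally with the printed Igf2 window. The former held 14 CG and 1 match to the hexamer, the latter 24 CG and 0 matches.

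The 3 tables held 388424 G9a, 245088 H3K9me2 and 552542 H3K27me3 regions on the nuclear chromosomes, with summed values per library of 22175663 to 143213031. Of all these regions, 44.5% for G9a, 44.4% for H3K9me2 and 42.7% for H3K27me3 were higher in the second pair. These shares are the background for the counts of regions by domain below. The first library of the second G9a pair stood apart: 9.34% of its values were 0 and its median was 52, against 0.163% to 1.40% and 77 to 94 in the other 3. It was at 0 in 52 of the 368 G9a regions at imprinted genes, against 5, 2 and 0 in the others. G9a values without it are given after the counts. Of 12 cardiomyocyte marker genes, including Myh6, Tnnt2 and Ryr2, none had a listed H3K27me3 region, whereas 8 of 8 fibroblast, 8 of 8 endothelial, 6 of 7 smooth muscle and pericyte and 7 of 8 leukocyte markers had one. Among all protein-coding genes, 66.7% had one. The tables list only regions that differ, so the absence of a region does not give the level of the mark. Summed H3K27me3 over the endothelial marker windows was 75229 and 70047 against 111317 and 94546, first pair against second, and over the fibroblast windows 27431 and 27021 against 38842 and 32437. The pericyte and smooth muscle windows gave 30926 and 29991 against 44365 and 38256, and the leukocyte windows 36936 and 31286 against 46309 and 38775. G9a sums were also higher in the second pair: 22983 and 31548 against 51930 and 42280 for endothelium, 6212 and 6694 against 9497 and 9140 for fibroblasts, 10546 and 13282 against 17870 and 17174 for pericytes and smooth muscle, and 7373 and 10037 against 14400 and 12750 for leukocytes. The pairs did not overlap in any of these 8 sums. Summed over the whole tables, H3K27me3 was 124198535 and 112764904 against 143213031 and 121358984. G9a was 36881071 and 44672116 against 41922229 and 48327896, and the pairs overlapped in both of these table sums. G9a over the cardiomyocyte markers was 3290 and 5314 against 2261 and 4520. H3K9me2 sums went the other way for endothelium, with 6888 and 7766 against 5745 and 6845. They did so too for pericytes and smooth muscle, with 1566 and 1937 against 1020 and 1212. For fibroblasts and leukocytes the H3K9me2 sums overlapped between pairs. For H3K27me3 and G9a the 4 lists of other cell types were thus higher in the second pair. The Igf2, Kcnq1 and Dlk1-Dio3 genes below leaned to that side, Snrpn and the Peg10 domain to the first pair. The part of other cell types in these differences was not tested. In all 4 G9a sums the highest value came from the library that stood apart. Over the whole tables, 99.6% of H3K27me3 and 98.8% of G9a regions of at least 5 kb were higher in the second pair. In bulk chromatin, a changed share of a cell type and a changed amount of a mark per cell cannot be told apart.

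Listed regions were found at all 40 imprinted genes, and 26 of the 40 had one in each of the 3 tables, while 44.0% of all protein-coding genes did. G9a regions lay at 38 genes, all but Tssc4 and Ndn, beside 84.0% of all genes. Of these, 34 had a region higher in the first pair (76.7% of all genes) and 32 a region higher in the second (55.5%). H3K27me3 regions lay at 34 genes, beside 66.7% of all genes, with 30 in the first direction (58.3%) and 30 in the second (50.4%). The genes without one were Cd81, Ube3a, Igf2r, Nnat, Zrsr1 and Nap1l5. H3K9me2 regions lay at 29 genes, beside 58.1% of all genes, with 25 in each direction (48.1% for the first pair and 38.8% for the second). The imprinted genes are longer than most, with a median body of 23853 bp against 17169 bp, and a longer window meets more regions, so these counts are descriptions. Within the tables, limma on log2(value + 1) over all regions gave no call at an adjusted p of 0.05 (Benjamini-Hochberg), and its unadjusted p was under 0.05 in 10 of 368 G9a, 20 of 256 H3K9me2 and 60 of 410 H3K27me3 regions at imprinted genes (2.72%, 7.81% and 14.6%). Over all regions of the tables these shares were 3.94%, 8.75% and 12.3%, so the imprinted genes lay near the background. With 2 libraries against 2, no 1 region can reach a two-sided exact permutation p under 0.33, so regions rest on the authors' deposited p.

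**Figure D1:**
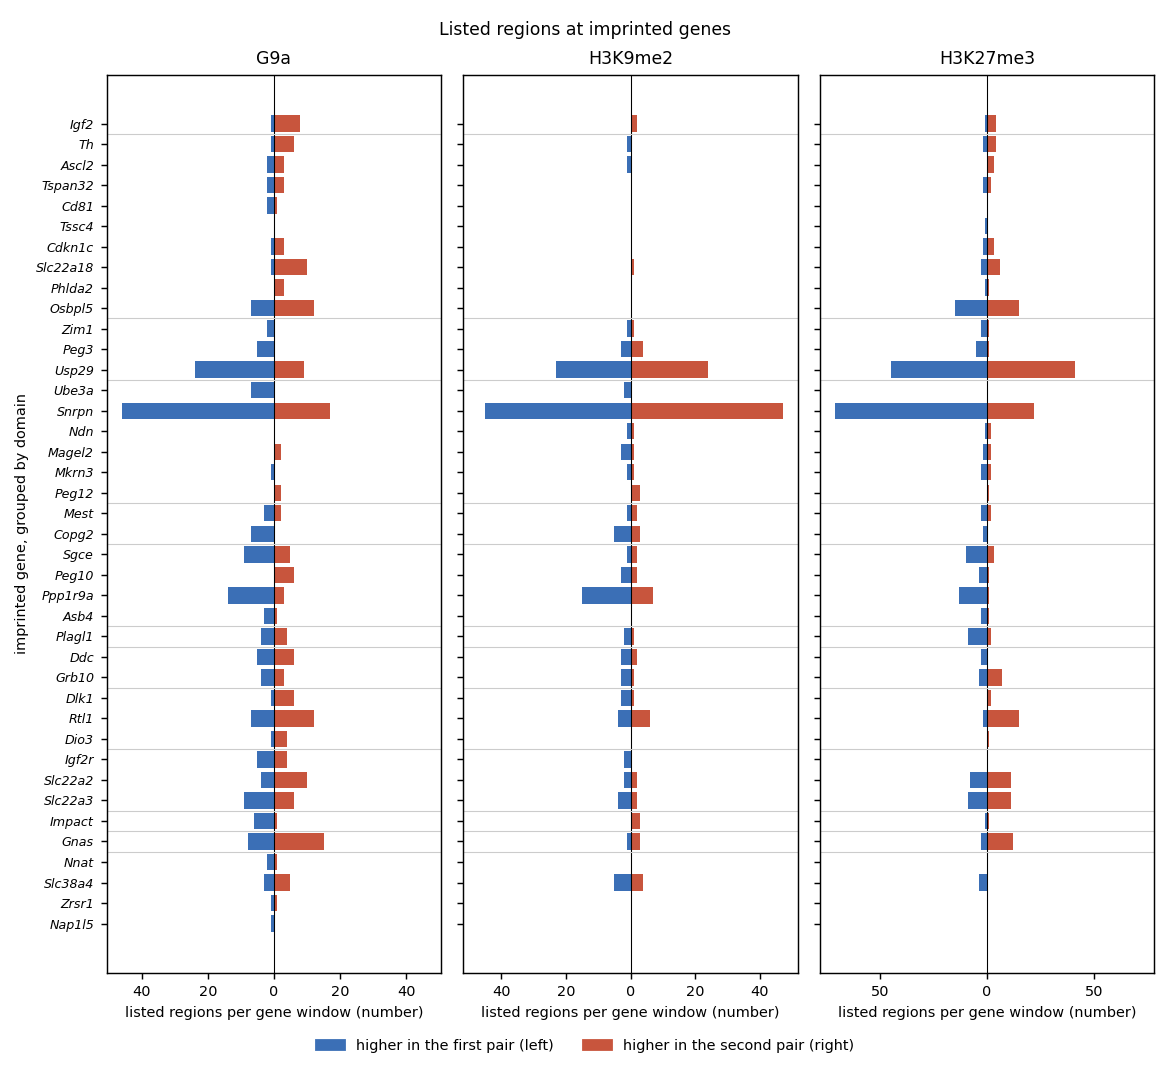
Number of listed regions in each imprinted gene's window, drawn to the left where the first pair was higher and to the right where the second pair was higher, with 1 panel per antibody and grey lines between domains. The long Usp29 and Snrpn windows hold the most regions in every panel, while the Igf2, Kcnq1 and Dlk1-Dio3 genes lean to the right for G9a and H3K27me3.

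Most genes carried regions of both directions side by side: 28 of the 40 for G9a, 21 for H3K9me2 and 26 for H3K27me3. The shares over all protein-coding genes were 48.3%, 28.9% and 42.0%, likewise counted with or without a region. The genes with H3K27me3 regions higher in the second pair only were Ascl2, Peg12, Dlk1 and Dio3, and those with regions higher in the first pair only were Tssc4, Copg2, Ddc and Slc38a4. For G9a, Phlda2, Magel2, Peg12 and Peg10 had second-pair regions only and Zim1, Peg3, Ube3a, Mkrn3, Copg2 and Nap1l5 first-pair regions only. For H3K9me2, Igf2, Slc22a18, Peg12 and Impact stood on the second side and Th, Ascl2, Ube3a and Igf2r on the first. Peg12 was thus the gene with second-pair regions only in all 3 tables. Judged by the region with the smallest deposited p, H3K27me3 was higher in the second pair at 22 of 34 imprinted genes (55.2% of all genes with a region), G9a at 21 of 38 (37.2%) and H3K9me2 at 17 of 29 (39.0%). The pairs did not overlap in 34 of these 34 H3K27me3 regions, 32 of 38 G9a regions and 23 of 29 H3K9me2 regions, beside 91.4%, 77.2% and 82.2% of all genes with a region.

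**Figure D2:**
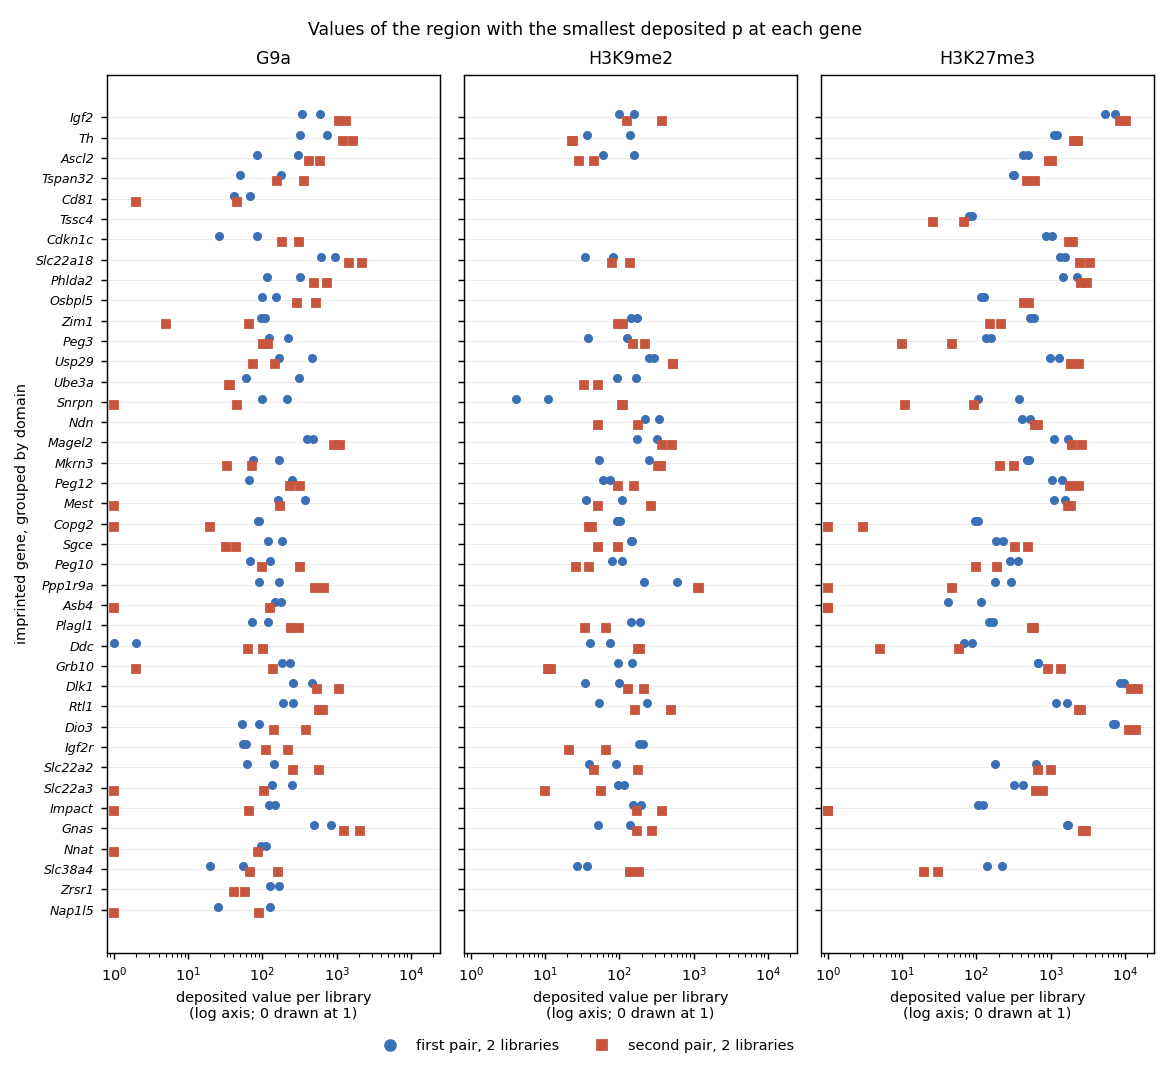
Deposited value in each library (log axis, 0 drawn at 1) of the region with the smallest deposited p at each imprinted gene, for G9a, H3K9me2 and H3K27me3; circles are the first pair and squares the second. The pairs are apart in all 34 H3K27me3 regions, and the highest values belong to H3K27me3 at Dlk1, Dio3 and Igf2.

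How far these values rest on a single library differed between the antibodies. Leaving out each library in turn moved the log2 difference by more than a fold of 1.5 at 8 of 34 genes for H3K27me3, 26 of 38 for G9a and 17 of 29 for H3K9me2. The 8 H3K27me3 genes were Tssc4, Peg3, Snrpn, Copg2, Ppp1r9a, Asb4, Ddc and Slc22a2, none of them with an H3K27me3 region of at least 5 kb. Without the second second-pair library the difference was -0.29 at Tssc4, -2.32 at Ppp1r9a and -0.41 at Ddc. At Snrpn it was -1.03 and at Asb4 -5.39 without the first first-pair library, at Slc22a2 it was 0.39 without the second first-pair library, and at Peg3 and Copg2 it was -1.61 and -4.67 without the first second-pair library.

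For G9a, 15 of the 17 printed regions on the first side had a smaller difference without the library that stood apart, and those at Ube3a and Zrsr1 had a larger one. The log2 difference went from -1.22 to -0.23 at Nnat, from -1.34 to -0.36 at Asb4, from -1.54 to -0.57 at Grb10 and from -1.61 to -0.61 at Mest. At Zim1 it was then -0.59, at Slc22a3 -0.88, at Impact -1.02, at Snrpn -1.75, at Copg2 -2.08 and at Cd81 -0.30, so the direction held at these genes while the size did not. On the second side, G9a at Peg10 went from 1.11 to 0.01, at Tspan32 from 1.17 to 0.45 and at Slc22a2 from 2.02 to 1.35. Other libraries mattered more elsewhere. G9a was 0.58 at Dlk1, 0.99 at Dio3 and 0.86 at Slc38a4 without the second second-pair library. Without the first first-pair library it was 0.97 at Th, 0.75 at Ascl2, 1.52 at Cdkn1c and 0.92 at Phlda2, and -0.70 at Ube3a, -0.59 at Usp29 and -0.49 at Mkrn3. G9a at Peg12 was 0.14 and at Ddc 4.81 without the second first-pair library.

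For H3K9me2, the difference was 0.15 at Rtl1, 0.02 at Impact, 0.44 at Slc22a18 and -1.54 at Igf2r without the second second-pair library. It was 0.45 at Mkrn3, 0.94 at Ppp1r9a, 0.69 at Gnas and 3.22 at Snrpn without the first first-pair library. Without the second first-pair library it was -0.63 at Th, -0.69 at Ascl2, 0.57 at Peg3 and 0.79 at Dlk1. It was -0.64 at Ndn and -0.88 at Slc22a3 without the first second-pair library. The direction of a printed region turned on leaving out a library at Nap1l5 for G9a and at Igf2, Mest and Slc22a2 for H3K9me2, and at no gene for H3K27me3.

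At the distal end of chromosome 7, Igf2, the fetal growth factor expressed from the paternal copy, showed higher H3K27me3 and G9a in the second pair. H3K27me3 over chr7:142657751-142668500, a region of 10.75 kb that takes in the upstream Igf2 promoters, was 5410 and 7328 in the first-pair libraries and 10336 and 8481 in those of the second pair (log2 difference 0.56). G9a over chr7:142655951-142660700, inside the gene, was 345 and 594 against 1066 and 1321 (1.34). Both second-pair values exceeded both first-pair values for each antibody, and second-pair regions covered 89.6% of the Igf2 window for H3K27me3 and 74.4% for G9a. H3K9me2 next to the gene was 100 and 158 against 128 and 380, where the pairs overlap, and its direction turned without the second library of the second pair (log2 difference -0.01). The 1 H3K9me2 region inside the gene was 30 and 82 against 114 and 98, without overlap of pairs.

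The neighbouring Kcnq1 domain, silenced on the paternal copy by the noncoding RNA Kcnq1ot1, holds 9 of the 40 genes, and at 6 of them the smallest-p regions of G9a and H3K27me3 were both higher in the second pair without overlap of pairs. Th, the rate-limiting enzyme of catecholamine synthesis, had G9a of 317 and 738 against 1671 and 1218 over chr7:142902001-142907450, just upstream (log2 difference 1.45). H3K27me3 over the overlapping chr7:142901101-142905850 was 1220 and 1111 against 2368 and 2073 (0.93). All second-pair values at Th exceeded the first-pair values for both antibodies, and a single H3K9me2 region of 450 bp went the other way, with 37 and 140 against 23 and 24. Ascl2, a basic helix-loop-helix factor needed for the placental trophoblast, had H3K27me3 of 498 and 424 against 1038 and 952 (1.11). G9a at Ascl2 was 84 and 303 against 422 and 599 (1.39). The 3 Ascl2 H3K27me3 regions, all higher in the second pair, covered 80.1% of its window, while H3K9me2 over its promoter window was 61 and 157 against 29 and 46 (log2 difference -1.51).

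Cdkn1c, a cyclin-dependent kinase inhibitor that restrains growth, had H3K27me3 of 878 and 1055 against 1998 and 1795 across the gene (0.97). G9a over chr7:143460551-143461500, inside Cdkn1c, was 26 and 86 against 183 and 314, a log2 difference of 2.13. The pairs did not overlap in either table. Slc22a18, a transporter of the organic cation family, had G9a of 626 and 954 against 2225 and 1480 over 6.35 kb (1.23). Its H3K27me3 was 1358 and 1574 against 3366 and 2495 over 6.15 kb (1.00). G9a and H3K27me3 regions higher in the second pair covered 71.3% and 72.6% of the Slc22a18 window. Phlda2, a pleckstrin homology protein that limits placental growth, had G9a of 115 and 324 against 736 and 494 (1.48). H3K27me3 over chr7:143499151-143504600, which spans Phlda2, was 2263 and 1454 against 3082 and 2596 (0.61). The G9a region printed for Phlda2 lay in its flank, and both regions also overlapped the Slc22a18 window. Osbpl5, an oxysterol-binding protein family member at the far end, had H3K27me3 over its start of 117 and 125 against 513 and 444 (1.97), and the pairs were far apart relative to their spread. G9a inside Osbpl5 was 100 and 153 against 533 and 289 (1.69). A further Osbpl5 region inside the gene, chr7:143709251-143710200, had H3K27me3 of 231 and 309 against 63 and 52 (-2.21), so the start of Osbpl5 and a stretch of its body differed in direction.

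The tetraspanin genes in the middle of the domain showed less. Tspan32 had H3K27me3 over its start of 320 and 311 against 620 and 485 (0.81), with no overlap, and G9a of 50 and 180 against 362 and 158 (1.17), with overlap. Cd81 had only G9a regions, and the leading one, 42 and 69 against 2 and 45, overlapped between pairs. Tssc4 had only 1 H3K27me3 region, 80 and 87 against 68 and 26. Across the 864 kb from Th to Osbpl5, 114 of 207 G9a regions and 103 of 178 H3K27me3 regions were higher in the second pair. These are 55.1% and 57.9%, beside 44.5% and 42.7% over the whole tables. By length the lean was larger: second-pair regions covered 147 kb against 56.4 kb for G9a and 178 kb against 68.9 kb for H3K27me3. Long regions lay mostly on the second side over the whole tables too, for which covered lengths were not computed. H3K9me2 had 15 regions higher in the first pair and 16 in the second, and Kcnq1ot1 itself had no listed H3K27me3 region. All 6 H3K27me3 regions of at least 5 kb in this span were higher in the second pair and separated, beside 99.6% and 99.3% of all listed H3K27me3 regions of this length.

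**Figure D3:**
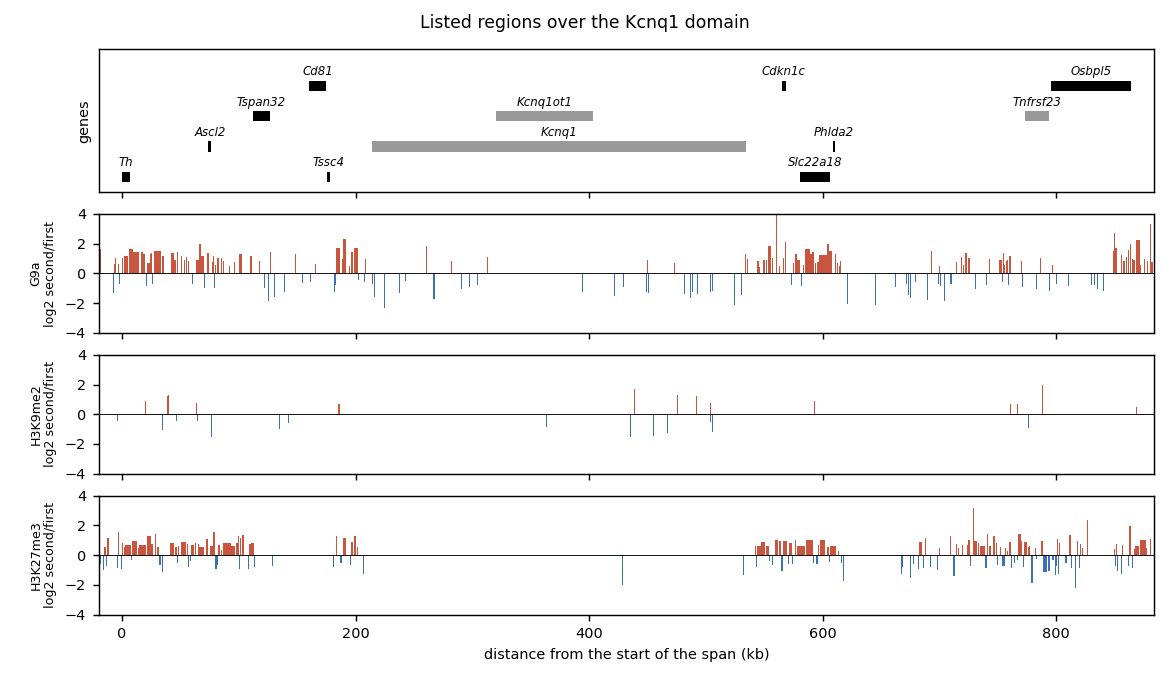
Listed regions across the Kcnq1 domain by distance from the start of the span in kb; bar height is the log2 difference, second over first pair (axis from -4 to 4), bar width the region's length, and the top panel shows imprinted genes of the list in black and other genes in grey. G9a and H3K27me3 regions higher in the second pair gather at Th to Ascl2 and at Cdkn1c to Phlda2, with few H3K27me3 regions over Kcnq1 between them.

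The Dlk1-Dio3 domain on chromosome 12 carried the broadest H3K27me3 regions of the imprinted genes. Dlk1, a transmembrane protein related to Notch ligands, lay within chr12:109443101-109465250, where H3K27me3 was 8478 and 9787 against 15176 and 12258 (0.59). Dio3, the deiodinase that inactivates thyroid hormone, lay within chr12:110265301-110285550, where it was 6886 and 7378 against 14179 and 11257 (0.83). The authors' deposited table lists the p of the Dio3 region as 0. The regions were 22.15 and 20.25 kb long, second-pair regions covered 96.8% of the Dlk1 and 100% of the Dio3 window, and in both regions the pairs did not overlap. Rtl1, a gene derived from a retrotransposon and needed in the placenta, had H3K27me3 of 1670 and 1185 against 2443 and 2582 (0.82). G9a followed the same side at all 3 genes: over the Dlk1 start it was 461 and 258 against 538 and 1077 (1.17). Over the Dio3 start, chr12:110278801-110279600, G9a was 89 and 54 against 143 and 389 (1.88), and in Rtl1 it was 259 and 188 against 579 and 663 (1.47). None of these 3 G9a regions overlapped between pairs. H3K9me2 at Dlk1, over chr12:109461801-109462700, was 100 and 34 against 217 and 130 (1.36), the Rtl1 region was 54 and 236 against 161 and 504 with overlap, and Dio3 had no listed H3K9me2 region. The Dlk1 window also held 3 H3K9me2 regions higher in the first pair (6.85% of the window, against 5.68% for the second).

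From Dlk1 to Dio3, 829 kb, 202 of 288 H3K27me3 regions were higher in the second pair and covered 520 kb, against 72.8 kb for those higher in the first. The 25 H3K27me3 regions of at least 5 kb here, 237 kb in sum, were all higher in the second pair and separated, with log2 differences of 0.57 to 1.17. Of all listed H3K27me3 regions of this length, 99.6% were higher in the second pair. G9a had 154 of 246 regions on the second side, and H3K9me2 was even, with 77 and 78. The span holds 58 microRNA hairpins, and neighbouring hairpins often share 1 region. For H3K27me3, 32 of them lay in regions higher in the second pair and 13 in regions higher in the first, beside 21.0% and 5.47% of all 1005 hairpins. For G9a the counts were 19 and 4, beside 13.6% and 8.56%. H3K9me2 went the other way, with 4 hairpins in second-pair and 17 in first-pair regions, beside 2.09% and 3.58%. The 25 H3K27me3, 14 G9a and 13 H3K9me2 regions behind these counts are the units that were measured, not the hairpins.

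**Figure D4:**
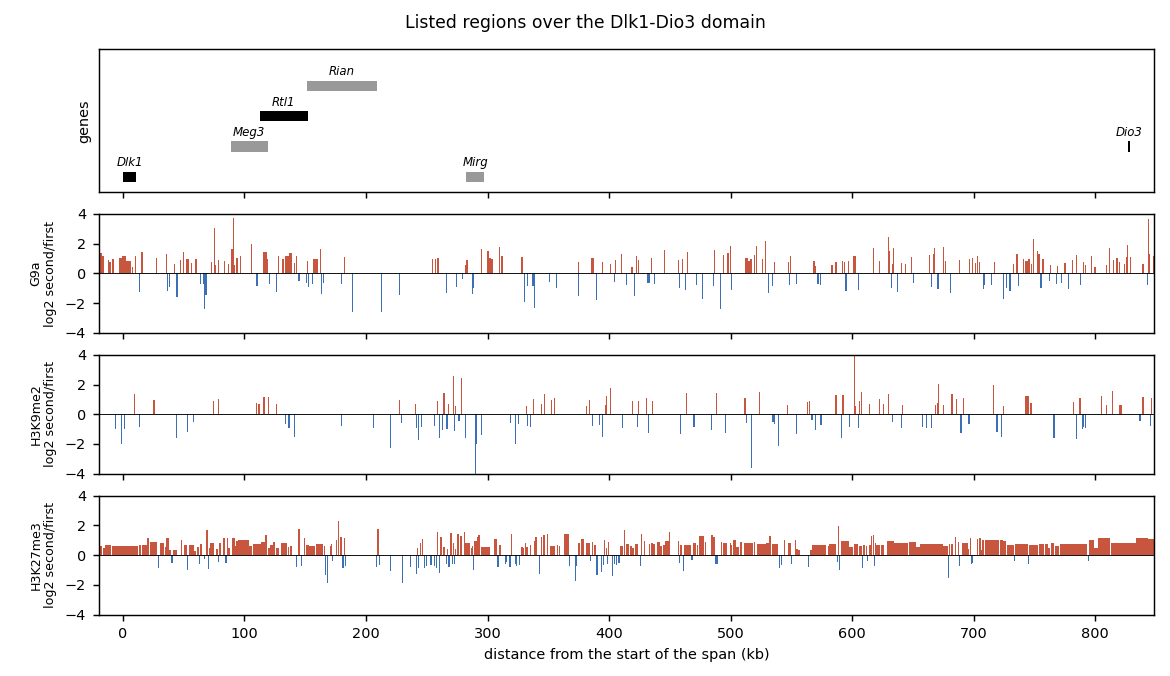
Listed regions across the Dlk1-Dio3 domain by distance from the start of the span in kb; bar height is the log2 difference, second over first pair (axis from -4 to 4), bar width the region's length, and the top panel shows imprinted genes of the list in black and other genes in grey. H3K27me3 regions higher in the second pair form nearly continuous blocks towards Dio3, while H3K9me2 regions are short and fall on both sides.

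The Snrpn-Ube3a domain on chromosome 7, whose human counterpart is altered in Prader-Willi and Angelman syndromes, was split by position. Peg12, which encodes a binding partner of the kinase GSK-3, lay in an H3K27me3 region, chr7:62460001-62465850, with 1060 and 1403 against 2390 and 1852 (0.78). Magel2, a MAGE family regulator of ubiquitin ligases, had H3K27me3 of 1102 and 1701 against 2632 and 1962 (0.71). G9a at Magel2, chr7:62376901-62379700, was 405 and 484 against 1119 and 916 (1.19), and H3K9me2 over chr7:62377501-62379050 was 173 and 320 against 517 and 373 (0.85). Magel2 thus had separated regions on the second side for all 3 antibodies in the same stretch of its body. Over its whole window H3K9me2 was mixed, with 3 regions higher in the first pair (22.3% of the window) and 1 in the second (16.0%). Ndn, the MAGE family gene necdin, had H3K27me3 over its start of 534 and 410 against 682 and 613 (0.46), with no overlap. H3K9me2 beside Ndn was 339 and 222 against 52 and 180 (-1.27). Mkrn3, a makorin RING finger gene, had H3K9me2 over its start of 54 and 254 against 333 and 360 (1.16), and H3K27me3 there, over 1.15 kb, was 118 and 206 against 312 and 243 (0.77). Its smallest-p H3K27me3 region lay in the upstream flank and was 505 and 478 against 325 and 206 (-0.89), and its only G9a region was 168 and 74 against 33 and 72. At Peg12, G9a was 251 and 67 against 319 and 234 and overlapped between pairs, while H3K9me2 beside the gene was 60 and 75 against 95 and 157 and did not.

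Snrpn, the gene of the splicing protein SmN whose annotated body runs over 467683 bp, leaned to the first pair. Of its H3K27me3 regions 71 were higher in the first pair and 22 in the second, and of its G9a regions 46 and 17. The leading Snrpn H3K27me3 region was 370 and 106 against 92 and 11 (-2.19), and the leading G9a region was 215 and 99 against 0 and 46 (-2.72). H3K9me2 was even, with 45 and 47 regions, and its leading region, chr7:60271751-60272250, was 4 and 11 against 112 and 110 (3.72). Ube3a, the ubiquitin ligase gene, had no H3K27me3 region, 7 G9a regions all higher in the first pair, led by 312 and 60 against 37 and 36, and H3K9me2 of 94 and 167 against 33 and 51 (-1.61). Over the whole 3236 kb, 422 of 519 H3K27me3 regions and 255 of 342 G9a regions were higher in the first pair, while H3K9me2 had 273 and 267. Without the second-pair G9a library that stood apart, 227 of those 255 G9a regions were still higher in the first pair. These were short regions, with a median of 700 bp for H3K27me3 and 550 bp for G9a, and the 2 H3K27me3 regions of at least 5 kb, at Magel2 and Peg12, were both higher in the second pair.

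In the Peg3 domain, H3K27me3 was mixed and G9a leaned to the first pair. Peg3, a paternally expressed zinc finger gene, had H3K27me3 of 157 and 135 against 10 and 47 (-2.32). G9a at Peg3 was 225 and 124 against 102 and 120 (-0.65). H3K9me2 in the Peg3 body, chr7:6718401-6719500, was 126 and 38 against 223 and 151 (1.18). The pairs overlapped in neither the H3K27me3 nor the H3K9me2 region. Each mark also had Peg3 regions of the other direction. H3K27me3 over chr7:6707751-6708450 was 64 and 45 against 159 and 140 (1.44). H3K9me2 over chr7:6708951-6709550 was 175 and 62 against 52 and 70 (-0.95), with overlap. In the Peg3 window, 5 H3K27me3 and 3 H3K9me2 regions were higher in the first pair, 1 and 4 in the second. Zim1, a maternally expressed zinc finger gene, had H3K27me3 of 590 and 526 against 212 and 151 (-1.61). Its G9a was 107 and 96 against 5 and 67 (-1.47), and H3K9me2 was 144 and 172 against 113 and 96 (-0.59). Usp29, a deubiquitinase gene, had H3K27me3 of 975 and 1304 against 1889 and 2399 over chr7:6911001-6915850 (0.91). A second Usp29 region, chr7:6845551-6847900, had H3K27me3 of 629 and 649 against 193 and 292 (-1.39). Both were separated, and the Usp29 window held 45 H3K27me3 regions in the first direction and 41 in the second. G9a at Usp29 was 471 and 168 against 74 and 149 (-1.51), and H3K9me2 was 248 and 297 against 531 and 528 (0.96).

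Around Peg10 on chromosome 6, the G9a and H3K9me2 sites with the smallest deposited p lay in Ppp1r9a, the gene of the actin-binding protein neurabin, which targets a protein phosphatase. G9a over chr6:4923501-4924700 was 89 and 167 against 673 and 518 (2.21). H3K9me2 over chr6:4923401-4924750 was 213 and 603 against 1143 and 1171 (1.5), and the 2 regions shared 1200 bp. An H3K27me3 region inside them was 3 and 55 against 71 and 212 (2.25), so the pairs did not overlap for any of the 3 antibodies there. Over the whole Ppp1r9a window the first pair was higher in 14 of 17 G9a, 15 of 22 H3K9me2 and 13 of 14 H3K27me3 regions, with H3K27me3 of 297 and 180 against 47 and 0 at the leading site (-3.29). Sgce, the sarcoglycan gene next to Peg10, had H3K27me3 of 228 and 183 against 498 and 331 (1.01), G9a of 120 and 182 against 32 and 44 (-1.96) and H3K9me2 of 146 and 145 against 52 and 95 (-0.98) at 3 separate sites. In the Sgce window, 10 H3K27me3 regions were higher in the first pair and 3 in the second. The G9a counts were 9 and 5, and the H3K9me2 counts 1 and 2. Peg10, a retrotransposon-derived gene needed for the placenta, had H3K27me3 of 288 and 364 against 192 and 98 (-1.16). G9a in the Peg10 flank was 126 and 69 against 326 and 98 with overlap, and H3K9me2 was 110 and 79 against 26 and 39 (-1.51). Asb4, an ankyrin repeat adaptor of ubiquitin ligases, had an H3K27me3 region of 115 and 41 that was listed at 0 in both second-pair libraries, and G9a of 178 and 146 against 1 and 126. Across the domain, 83 of 120 H3K27me3, 70 of 101 G9a and 40 of 67 H3K9me2 regions were higher in the first pair. The shares higher in the second pair were 30.8%, 30.7% and 40.3%, beside 42.7%, 44.5% and 44.4% over the whole tables. The H3K9me2 count thus lay near its background.

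Mest, a paternally expressed gene of the alpha/beta hydrolase family, had H3K27me3 of 1545 and 1103 against 1704 and 1898 over chr6:30731351-30736100 (0.44), without overlap. Its G9a and H3K9me2 regions overlapped between pairs, with G9a of 372 and 162 against 0 and 174, and H3K9me2 of 109 and 36 against 52 and 264. The neighbour Copg2, a coat protein gene of transport vesicles, was lower in the second pair throughout its leading regions: H3K27me3 was 106 and 95 against 0 and 3 (-5.34). G9a at Copg2 was 89 and 87 against 0 and 20 (-3.02), and H3K9me2 was 93 and 103 against 39 and 43 (-1.24).

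Plagl1, a zinc finger factor that regulates other imprinted genes, had H3K27me3 of 166 and 148 against 597 and 560 over chr10:13127251-13129650 (1.87). The spread within each pair was small beside that difference. Over the whole Plagl1 window the lean was the other way. There, 9 H3K27me3 regions were higher in the first pair (13.9% of the window) and 2 in the second (6.65%). G9a over the Plagl1 start, chr10:13090501-13091700, was 73 and 118 against 315 and 245 (1.54), and H3K9me2 was 189 and 145 against 67 and 35 (-1.69) further inside. Grb10, an adaptor that restrains insulin and IGF receptor signalling, had H3K27me3 over its start, chr11:12036301-12038600, of 684 and 678 against 1400 and 928 (0.77). H3K9me2 inside Grb10 was 97 and 150 against 11 and 12 (-3.32), and G9a was 186 and 235 against 2 and 141 (-1.54). Ddc, which makes dopamine and serotonin from their precursors and is imprinted in the fetal heart, had H3K9me2 of 74 and 40 against 192 and 181 (1.69). Its leading G9a region was 2 and 0 against 64 and 102, with the first pair at or near 0, and its H3K27me3 was 68 and 87 against 58 and 5 (-1.27).

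The Igf2r domain on chromosome 17 is silenced on the paternal copy by the noncoding RNA Airn. Igf2r, the receptor that clears IGF2, had no H3K27me3 region, and its H3K9me2, chr17:12729951-12730850, was 211 and 182 against 67 and 21 (-2.13). G9a in Igf2r was 61 and 55 against 112 and 219 (1.5) at another site. At chr17:12722301-12722850 regions of both antibodies overlapped with the first pair higher, with G9a of 123 and 101 against 41 and 28 and H3K9me2 of 97 and 57 against 56 and 41. In all, 5 G9a regions in Igf2r were higher in the first pair and 4 in the second, and both H3K9me2 regions were higher in the first. Slc22a2, an organic cation transporter, had G9a of 62 and 142 against 572 and 262 over chr17:12595851-12597300 (2.02). Its H3K27me3 over the start was 645 and 176 against 1018 and 675 (1.04), and its H3K9me2 was 39 and 91 against 181 and 46 with overlap. Slc22a3, another organic cation transporter, had H3K27me3 over its start of 419 and 326 against 628 and 786 (0.92). G9a inside Slc22a3 was 250 and 134 against 1 and 104 (-1.85), and H3K9me2 was 96 and 116 against 10 and 57 (-1.63). The promoters of both transporters thus lay in H3K27me3 regions higher in the second pair. Over the 350 kb span, 49 of 77 G9a regions and 34 of 64 H3K27me3 regions were higher in the second pair, and 14 of 19 H3K9me2 regions in the first.

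Gnas, which encodes the stimulatory G protein alpha subunit and several transcripts imprinted on either copy, had G9a of 501 and 842 against 2068 and 1259 over chr2:174297101-174302550 (1.31). H3K27me3 over chr2:174282801-174289450, at its upstream start, was 1685 and 1741 against 2987 and 2762 (0.75). H3K9me2 beyond the 3′ end was 52 and 139 against 172 and 279 (1.23). None of the 3 overlapped between pairs, and 12 of 15 H3K27me3 and 15 of 23 G9a regions in the Gnas window were higher in the second pair. A Gnas H3K27me3 region inside the gene, chr2:174328001-174329000, went the other way with 217 and 252 against 73 and 70 (-1.70).

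Of the remaining genes, Slc38a4, an amino acid transporter, had H3K9me2 of 27 and 37 against 140 and 182 (2.30) and G9a of 20 and 55 against 69 and 161 (1.59). Its H3K27me3 was 219 and 140 against 20 and 30 (-2.80), and all 4 of its H3K27me3 regions were higher in the first pair. The H3K9me2 and G9a regions of Slc38a4 lay on both sides: 5 H3K9me2 and 3 G9a regions favoured the first pair, 4 H3K9me2 and 5 G9a regions the second. Impact, a regulator of the amino acid sensor GCN2, had an H3K27me3 region of 122 and 106 that was listed at 0 in both second-pair libraries. Its G9a was 123 and 146 against 0 and 66, and its H3K9me2 was 151 and 193 against 175 and 372, with overlap. Nnat, the proteolipid neuronatin, had G9a of 96 and 111 against 0 and 88. Zrsr1, a splicing factor gene, had G9a of 166 and 127 against 58 and 41 (-1.55), and Nap1l5, related to nucleosome assembly proteins, had G9a of 25 and 126 against 0 and 90. These last 3 genes, each lying inside an intron of another gene, had neither H3K9me2 nor H3K27me3 regions, and the Nap1l5 direction turned when either the first-pair library at 126 or the second-pair library at 0 was left out (log2 difference 0.82 and 0.25).

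Region length went together with direction. All 12 H3K27me3 regions of at least 5 kb at imprinted genes, at Igf2, Th, Slc22a18, Phlda2, Magel2, Peg12, Dlk1, Rtl1, Dio3 and Gnas, were higher in the second pair and separated. Of the 38 regions of 2 to 5 kb, 31 were higher in the second pair (81.6%), and of the 255 under 1 kb, 32.9% were. The same held over all listed H3K27me3 regions, with 99.6%, 79.5% and 35.6%, so this relation is not particular to imprinted genes. For G9a, all 20 regions of at least 2 kb at imprinted genes were higher in the second pair, at Igf2, Th, Ascl2, Slc22a18, Phlda2, Magel2, Dlk1, Rtl1 and Gnas, against 39.2% of those under 1 kb. Over the whole G9a table the shares were 98.8% from 5 kb, 94.6% from 2 to 5 kb and 38.7% under 1 kb. Second-pair H3K27me3 regions covered a median of 11.5% of an imprinted gene's window and 0.209% over all genes. Of the 40, 11 genes lay above the 90th percentile of all genes (57.8%), namely Ascl2, Cdkn1c, Dio3, Dlk1, Igf2, Magel2, Peg12, Phlda2, Rtl1, Slc22a18 and Th. For G9a the medians were 4.34% and 0.862%, and 10 of those genes, all but Peg12, lay above the 90th percentile (28.9%). First-pair regions covered medians of 3.81% (H3K27me3) and 5.05% (G9a) of the imprinted windows, beside 2.13% and 4.54% over all genes. The H3K9me2 medians were 1.60% for the first pair and 1.28% for the second, both beside 0 over all genes. Above the H3K9me2 90th percentiles lay 8 and 11 imprinted genes.

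**Figure D5:**
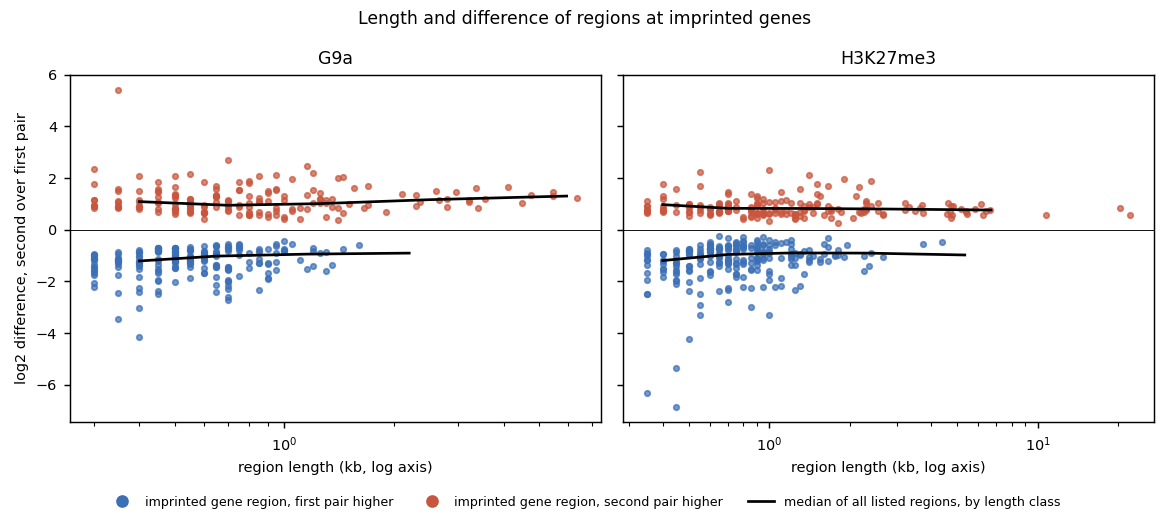
Log2 difference, second over first pair, against region length in kb (log axis) for the G9a and H3K27me3 regions at imprinted genes; the black lines are medians of all listed regions by length class in each direction. All 12 H3K27me3 regions and all 3 G9a regions of at least 5 kb lie above 0, and the difference itself changes little with length.

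At the promoters, the second pair was the usual higher side for G9a and H3K27me3. Of the 35 genes with a promoter entry, 20 had an H3K27me3 region over a promoter window (29.8% of all genes with an entry), 19 of them with a region higher in the second pair. G9a regions overlapped the promoters of 15 genes (21.2%), 14 of them with a second-pair region. The percentages count regions of either direction. The share by direction over the promoters of all genes was not computed, so the lean is not shown to be particular to imprinted genes. H3K9me2 did so at 7 (5.96%): Peg3, Usp29, Mkrn3 and Peg12 on the second side and Ascl2, Snrpn and Magel2 on the first. Beside the sequences printed above, H3K27me3 over the Ascl2 promoter was 1075 and 1205 against 1634 and 1865 (0.62), and G9a was 130 and 150 against 180 and 288 (0.74). The Th promoter, chr7:142899946-142900245, had G9a of 287 and 357 against 1270 and 726 (1.63) and H3K27me3 of 1483 and 1438 against 2485 and 2165 (0.67). At the Gnas upstream start, G9a was 235 and 388 against 495 and 654 (0.88). G9a over the Slc38a4 start was 50 and 94 against 206 and 132 (1.22), and over the Slc22a3 start 47 and 81 against 303 and 85 (1.58). The pairs did not overlap in any of these 7 promoter regions. At the Th, Slc38a4 and Slc22a3 starts, the higher second-pair G9a value came from the library that stood apart. The other second-pair value at the Slc22a3 start, 85, lay close to the first-pair value of 81. The head-to-head promoters of Peg3 and Usp29 shared 1 H3K9me2 region with 29 and 100 against 93 and 145, where the pairs overlapped.

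Regions of 2 antibodies often lay on top of each other with the same direction. G9a and H3K27me3 regions both higher in the second pair overlapped at 26 of the 40 genes (32.1% of all genes), and both higher in the first pair at 11 (27.2%). The longest shared stretches were 4650 bp in Slc22a18, 3850 bp at Th and 3400 bp in Dlk1. G9a and H3K9me2 shared second-pair regions at 15 genes (13.5%) and first-pair regions at 10 (18.9%), with 1700 bp in Rtl1, 1550 bp in Magel2 and 1200 bp in Ppp1r9a as the longest on the second side. H3K9me2 and H3K27me3 did so at 16 (16.1%) and 10 genes (18.9%). Counting separated regions only, G9a with H3K27me3 on the second side held at 20 genes (24.6% of all genes), and G9a with H3K9me2 at 7 (7.68%): Igf2, Magel2, Ppp1r9a, Dlk1, Rtl1, Gnas and Slc38a4. The 3 tables come from separate immunoprecipitations, and an overlap is an overlap of position only.

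Among 36 other imprinted genes and imprinted noncoding RNA genes, 35 had a G9a region, 31 an H3K27me3 region and 27 an H3K9me2 region, beside 84.0%, 66.7% and 58.1% of all protein-coding genes. The 4 with the smallest deposited p were Begain, Cdh15, Zdbf2 and H19, each higher in the second pair. Begain, upstream of Dlk1, had H3K27me3 of 8953 and 9076 against 16609 and 15376 over 23500 bp (0.83). Zdbf2, a zinc finger gene, had H3K27me3 of 4980 and 4709 against 8562 and 6338 (0.62). H19, the noncoding RNA that shares enhancers with Igf2, had G9a of 871 and 773 against 2824 and 1319 (1.33), and Cdh15, which encodes a cadherin of muscle cells, had G9a of 990 and 1122 against 3440 and 2337 (1.45). None of these overlapped between pairs. Of 23 genes that set, read or maintain imprints, all had a G9a region, 21 in the first direction and 15 in the second, and 19 an H3K27me3 region, beside 84.0%, 76.7%, 55.5% and 66.7% of all genes. Ehmt2, which encodes G9a, had G9a of 956 and 482 against 3000 and 1364 (1.60) and H3K9me2 of 548 and 781 against 2603 and 2160 (1.84) over nearly the same stretch inside the gene. Dnmt3b, a de novo DNA methyltransferase, had G9a of 399 and 615 against 2797 and 901 (1.86) and H3K9me2 of 259 and 482 against 2707 and 2553 (2.82). Dnmt3l, a cofactor of the de novo methyltransferases, had G9a of 265 and 430 against 1388 and 697 (1.58). Ezh2, the catalytic subunit of Polycomb repressive complex 2, had a G9a region of 321 and 120 against 0 and 1. The Ehmt2 and Dnmt3b regions were separated for both antibodies, and so were those at Dnmt3l and Ezh2. In the G9a regions of H19, Cdh15, Ehmt2, Dnmt3b and Dnmt3l, the highest value came from the second-pair library that stood apart. Their differences without that library were not computed.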

How the data were processed

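Cardiomyocyte-enriched cells were profiled by ChIP-seq with libraries from a NuGEN Ultralow kit, per the labels' protocols. The tools named are BWA 0.7.10-r789 and SAMtools 1.1, with build mm10 (GRCm38), per the submitters' processing notes. The region caller, the scaling of its values and any input correction are unknown (not given in the sources used here). Deposited by the authors were 3 headerless tables that list, per region, 4 whole numbers and a -log10 p. A + in the strand column marks the first pair as higher. The authors' deposited values may be scaled or corrected for input, so they are not taken for raw counts of reads, the depth of the libraries is unknown, and a count model foreseen for raw counts was not used. The largest deposited p is 0.01. Regions on mitochondrial DNA (4) were left out, and the 2 input libraries were not used. The labels call the 2 libraries of a pair biological replicates.

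Computed here (Python 3.11.15, pandas 2.3.3, numpy 2.4.6) were overlaps of at least 1 bp with gene windows (gene table of GRCm38.p6, flank 2500 bp), the log2 difference of pair means with a pseudocount of 1, and counts of genes beside the same over all 21887 protein-coding genes. An alternative fit to each whole table on the log2 scale, with the same pseudocount, used limma 3.58.1 under R 4.3.3. Both were tested on simulated data. The 40 genes, their domains and the gene lists (other imprinted genes, imprinting control factors, and markers of leukocytes, endothelium, fibroblasts, cardiomyocytes, and pericytes with smooth muscle) were chosen with earlier results of these data known, so no list was tested. Named regions are the smallest-p region of each gene and table. The rule had also foreseen the smallest-p region of the opposite direction for genes in at least 2 tables, and those are printed at few genes only. Of each further list, the 4 genes with the smallest deposited p are named. Alternatives covered the flank, the overlap, stricter p, a minimum value, separated regions only, scaling to equal medians, another pseudocount, region length, whole domain spans, limma and leaving out each library. Sgce, Rtl1, Peg10, Impact and Cdkn1c have no entry in the promoter table.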

Additional observations from a re-analysis of the deposited data

How the results depend on the processing

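The 6 counts of genes with a region in a given direction stayed within 1.5 times of the reported value under other flanks, overlap rules, stricter deposited p, separated regions only and leaving out each library. With a library left out they were 31 to 34 and 28 to 32 for G9a in the first and second direction, 25 and 24 to 25 for H3K9me2, and 29 to 30 in each direction for H3K27me3. With separated regions only they were 27 and 28, 22 and 18, and 28 and 29. With a mean value of at least 100 per region, 20 genes (reported: 34) had a G9a and 13 (reported: 25) an H3K9me2 region higher in the first pair. Weighted by length, 60.6% of G9a (reported: 46.5%) and 62.2% of H3K27me3 (reported: 43.7%) sequence in regions at imprinted genes was higher in the second pair. The same weighting was not computed over the whole tables, where long regions also lay mostly on the second side. With limma, 0 of 368 G9a, 0 of 256 H3K9me2 and 0 of 410 H3K27me3 regions passed, with smallest adjusted p of 0.461, 0.389 and 0.106, so every printed region lost its call there. Counting separated regions only, overlaps of G9a with H3K9me2 fell from 10 to 6 genes in the first direction and from 15 to 7 in the second, of G9a with H3K27me3 from 11 to 7 in the first, and of H3K9me2 with H3K27me3 from 10 to 6 in the first. Left-out libraries reversed G9a at Nap1l5 (log2 difference -6.26 to 0.82) and H3K9me2 at Igf2 (-0.011 to 1.55), Mest (-0.47 to 2.10) and Slc22a2 (-0.49 to 1.52). The cause of these changes was not tested. Scaling to equal medians, for the shares of regions chosen after seeing the data, shifted the median of all regions by 0.28 (G9a), 0.17 (H3K9me2) and 0.28 (H3K27me3) on the log2 scale and turned at most 0.222% of the regions of a table. Of the printed differences, scaling moved 18 of 34 for H3K27me3, 5 of 38 for G9a and 3 of 29 for H3K9me2 by more than the spread between libraries, with shifts of 0.14 to 0.38, -0.14 to 0.59 and 0.15 to 0.19, and reversed none of them. No paired analysis was possible because the columns of the tables carry no replicate numbers. Pairs of 2 libraries, unknown depth and the listing of differing regions only limit every value here, and levels at sites that did not differ were not analysed here.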
